A study of Schmidtea mediterranea with 5 samples.

Results

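The *prog-1* family of epithelial progenitor genes in the planarian *Schmidtea mediterranea* was examined as 6 transcripts: *prog-1* (SmedASXL_011484), *prog-1-1* (SmedASXL_013664), *prog-1-2* (SmedASXL_008207), *prog-1-4* (SmedASXL_005723), *prog-1-7* (SmedASXL_003595) and *prog-1-8* (SmedASXL_009962). They were chosen because the study's gene lists pair these names with transcripts, and they are 6 of the 68301 transcripts listed in all 5 libraries. The same lists hold 11 transcripts with a name that begins with *prog-1*. All 6 members were detected in every library and had at least 1 CPM (1 read in 1000000 mapped reads) in 1 or both libraries of every comparison. The lists do not give 1 number to each transcript: SmedASXL_013664 is *prog-1-1* in the list used here and *prog-1-10* in another.

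The study asked which genes mark and regulate the progeny of planarian stem cells, and what the loss of *mex3-1*, which encodes a predicted RNA-binding protein, does to them. RNA-seq was done on 5 samples of the clonal asexual strain CIW4, with 1 library each. The X1 fraction, of cycling cells that are mostly stem cells, and the X2 fraction, associated with stem cell progeny, were sorted by flow cytometry from dissociated animals after a Hoechst stain. The other libraries came from whole animals: animals 7 days after 60 Gy of gamma irradiation, *control(RNAi)* animals fed dsRNA against *unc22*, a gene of another worm, and *mex3-1(RNAi)* animals, both collected 12 days after feeding. The sample labels give 1 feed for both RNAi groups, but the growth protocol gives 5. For each RNAi library 3 RNA preparations were pooled in equal parts, so 1 value stands for their mix. The sorted samples and the irradiated animals were not paired with an unirradiated whole-animal sample of their own. The nearest such sample is *control(RNAi)*, which also differs in feeding.

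Planarian stem cells, the neoblasts, are the only dividing somatic cells of the animal and are eliminated by irradiation. In the epithelial lineage, neoblasts give rise to non-dividing cells beneath the epidermis that express *prog* genes first (early progeny) and *AGAT* genes later (late progeny), before they enter the epidermis. PROG proteins have no clear homolog in other animals, carry a predicted signal sequence and have no known function. Whole-mount in situ hybridization placed *prog-1* and *prog-1-1* with the early progeny and *prog-1-2*, *prog-1-4*, *prog-1-7* and *prog-1-8* with the late progeny. The labels rest on how soon the staining was lost after irradiation, so an early and late split in any comparison that holds the irradiated library is fixed in large part by the labels and is given as a description. Sensitivity to irradiation was also among the study's criteria for the members other than *prog-1*, an established marker. The late label does not make its members alike. In the study's double staining, only a minority of *prog-1-2* cells also expressed *AGAT-1*, unlike the other late transcripts it examined. *prog-1-2* was also seen within the epithelium, and the study proposes that its cells are further along the lineage.

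The libraries held 60528509 to 69835694 mapped reads, and the deposited values were whole reads within 0.01 read, so the reads of each transcript could be recovered. The *mex3-1* transcript was at 144 CPM in *control(RNAi)* and 23.4 CPM in *mex3-1(RNAi)*, which is 16.3% of the control level. The stem cell marker *piwi-1*, which encodes a PIWI protein, was at 3697 CPM in X1, 934 CPM in X2, 3.21 CPM in irradiated animals, 308 CPM in *control(RNAi)* and 452 CPM in *mex3-1(RNAi)*. The summed level of 59 known stem cell transcripts was 33780 CPM in X1, 19769 CPM in X2, 2903 CPM in irradiated animals, 6606 CPM in *control(RNAi)* and 7913 CPM in *mex3-1(RNAi)*, and 0 of the 59 were at 0 reads in any library. By *piwi-1*, the X2 library held stem cell transcripts as well as the progeny transcripts given below. The sum of the 59 is less specific to stem cells, since irradiated animals kept 2903 CPM of it.

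The early member *prog-1*, the founding marker of early progeny, was at 91.2 CPM in X1 (95% counting interval 88.8 to 93.5), 2156 CPM in X2 (2144 to 2168), 1.03 CPM in irradiated animals (0.807 to 1.30, from 72 reads), 151 CPM in *control(RNAi)* (148 to 154) and 17.7 CPM in *mex3-1(RNAi)* (16.7 to 18.7). Its X2 level was the highest and its irradiated level the lowest, and no 2 of these intervals overlap. These intervals are exact and cover counting error only. With 1 library per group used here, a difference between libraries has no replicate check, no test was made and no p-value is given. Libraries of other series that the authors tabled beside these were not used here. In whole animals, fewer cells of a type and less RNA per cell cannot be told apart.

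The other early member, *prog-1-1*, whose product is known only by its similarity to PROG-1, was at 72.5 CPM in X1, 1837 CPM in X2, 0.630 CPM in irradiated animals (44 reads), 146 CPM in *control(RNAi)* and 14.5 CPM in *mex3-1(RNAi)*. The 5 libraries stood in the same order as for *prog-1*: X2, *control(RNAi)*, X1, *mex3-1(RNAi)*, irradiated. In X2 the CPM of *prog-1* was 14.3 times (14.0 to 14.6) and that of *prog-1-1* 12.6 times (12.4 to 12.9) that of *control(RNAi)*, the next library in the order.

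The late member *prog-1-2* was at 1.94 CPM in X1, 11.8 CPM in X2, 104 CPM in irradiated animals, 231 CPM in *control(RNAi)* and 28.6 CPM in *mex3-1(RNAi)*. Whole *control(RNAi)* animals were highest and both sorted fractions lowest. For this transcript the irradiated library held 7280 reads and the X1 library 126. The irradiated library came second of the 5 here and last for the early members, a contrast that the labels largely fix.

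The late member *prog-1-4*, the least abundant of the late members in *control(RNAi)* by reads, was at 0.509 CPM in X1 (33 reads), 2.54 CPM in X2, 9.06 CPM in irradiated animals, 30.6 CPM in *control(RNAi)* and 3.05 CPM in *mex3-1(RNAi)*. Its order was that of *prog-1-2*, but *mex3-1(RNAi)* was 1.20 times X2 with an interval of 0.966 to 1.49, so these 2 libraries did not differ beyond counting error. Transcript lengths are not used here, so a level is compared between libraries and not between transcripts.

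The late member *prog-1-7* was at 1.70 CPM in X1, 6.48 CPM in X2, 12.7 CPM in irradiated animals, 92.5 CPM in *control(RNAi)* and 5.20 CPM in *mex3-1(RNAi)*. It alone among the late members was higher in X2 than in *mex3-1(RNAi)*, by 1.24 times (1.07 to 1.45), with a lower bound close to 1. The late member *prog-1-8* was at 0.216 CPM in X1 (14 reads), 1.44 CPM in X2 (87 reads), 25.3 CPM in irradiated animals, 117 CPM in *control(RNAi)* and 6.91 CPM in *mex3-1(RNAi)*. It was the member with the fewest reads in both sorted fractions, at 1.23% of the *control(RNAi)* level in X2 (0.985% to 1.52%) and 0.185% in X1 (0.101% to 0.311%). Over the 6 members, 23 of 24 neighbouring libraries in these orders differed beyond counting error. The libraries were ordered by these same values and the share over all transcripts was not computed, so nothing about the family is read from that count.

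**Figure D1:**
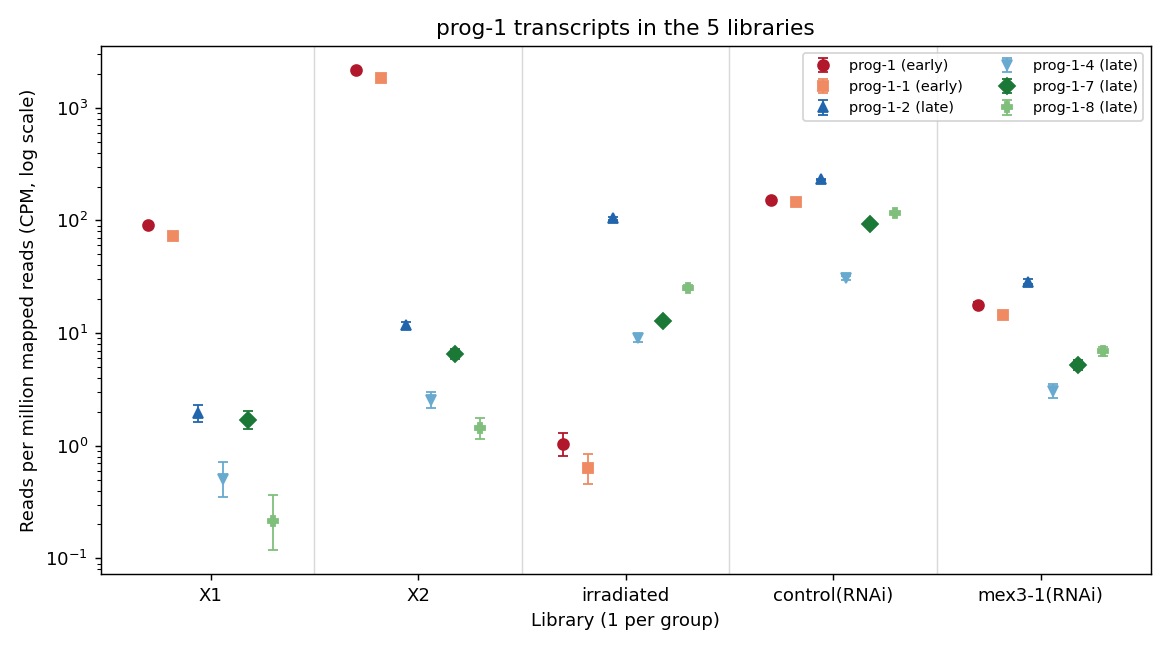
Level of each *prog-1* transcript in each library, in CPM on a log axis, with 95% exact Poisson counting intervals as bars; each point is 1 library. The early members stand at 2156 and 1837 CPM in X2 and near 1 CPM or below in irradiated animals, while the late members are highest in *control(RNAi)* and lowest in X1.

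The make-up of the reads of the 6 transcripts differed with these orders. The 6 transcripts together were at 168 CPM in X1, 4015 CPM in X2, 153 CPM in irradiated animals, 767 CPM in *control(RNAi)* and 76.0 CPM in *mex3-1(RNAi)*. X1 and irradiated animals had similar sums made of different transcripts: the early members held 97.4% of these reads in X1 (97.1% to 97.7%, exact binomial interval) and 1.09% in irradiated animals (0.898% to 1.30%). In X2 they held 99.4% (99.4% to 99.5%), and *prog-1-2* was the largest late contributor there with 0.293% of the reads. In *control(RNAi)* the early members held 38.6% (38.2% to 39.0%) and in *mex3-1(RNAi)* 42.4% (41.0% to 43.8%).

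In irradiated animals *prog-1-2* held 68.1% of the reads of the 6 transcripts (67.2% to 69.0%), against 30.1% in *control(RNAi)* (29.8% to 30.5%). Over all 11 *prog-1*-numbered transcripts it held 49.0% and 24.1%, and the 4 late members together held 71.1% in irradiated animals rather than 98.9%. *prog-1-8* held 16.5% in irradiated animals and 15.2% in *control(RNAi)*. The share of *prog-1-7* was 12.1% in *control(RNAi)*, 8.33% in irradiated animals and 6.85% in *mex3-1(RNAi)*. These shares count reads, so a longer transcript weighs more. A share can be compared between libraries, and its size in 1 library is not a ratio of molecules.

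**Figure D2:**
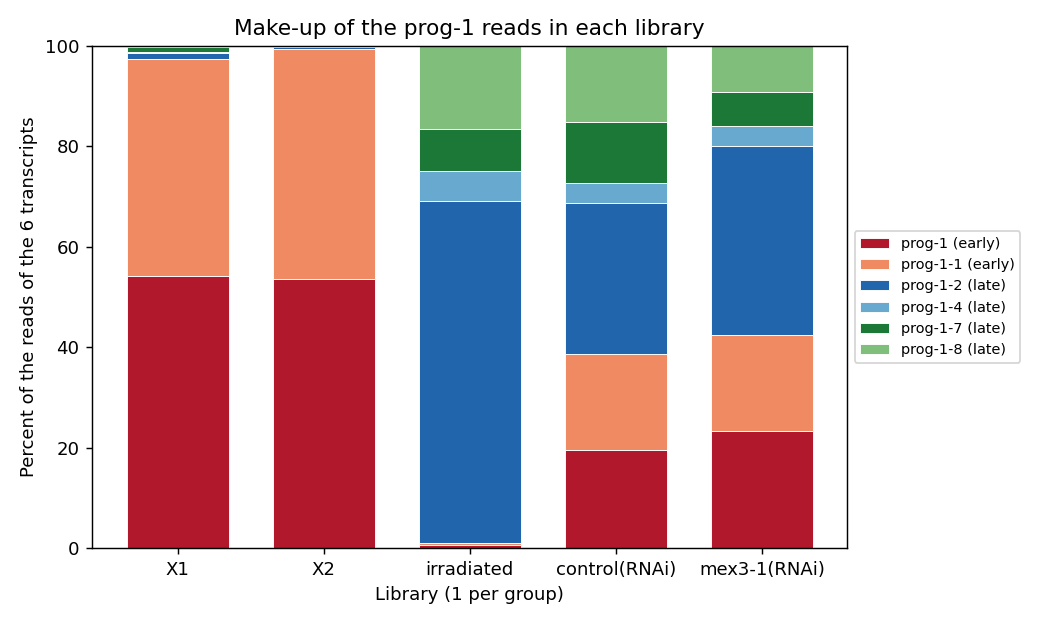
Share of the reads of the 6 *prog-1* transcripts that each holds, in percent, with 1 stacked bar per library. The early members fill 97.4% of the bar in X1 and 99.4% in X2 but 1.09% in irradiated animals, where *prog-1-2* fills 68.1%.

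The first comparison asked which transcripts stand higher in the progeny fraction than in the stem cell fraction. All 6 members were past 2-fold in favour of X2, as the ratio of CPM + 1, where 13.8% of the 18151 transcripts compared (1 CPM or more in 1 of the libraries) were. The early members differed most, by 23.4-fold for *prog-1* (22.8 to 24.0) and 25.0-fold for *prog-1-1* (24.3 to 25.7), at ranks 8 and 6 from the highest. The late members differed by 4.34-fold for *prog-1-2* (3.78 to 4.96), 2.77-fold for *prog-1-7* (2.39 to 3.21), 2.35-fold for *prog-1-4* (1.98 to 2.72) and 2.004-fold for *prog-1-8* (1.71 to 2.26). Those of *prog-1-4* and *prog-1-8* have an interval that reaches below 2, and 3 members passed 2-fold with a pseudocount of 5 CPM. Adding 1 CPM lowers the ratio of weak transcripts: in CPM alone *prog-1-8* was 6.66 times (3.76 to 12.7) higher in X2 and *prog-1-4* 5.00 times (3.41 to 7.52). The authors used the X1, X2 and irradiated libraries when they chose genes enriched in X2. Their list of these genes holds 5 of the 6 members, all but *prog-1*, so this direction is not independent evidence. The listing does not make the late members enriched over irradiated animals here: in X2 each of them was below irradiated animals.

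The comparison of each sorted fraction with irradiated animals asked which transcripts depend on dividing cells and their recent progeny. The irradiated library stands in 4 of the 6 comparisons made, which are therefore not independent of each other. The comparison sets sorted cells against whole animals, so the effects of sorting and of irradiation cannot be told apart. The median log2 ratio of transcripts that reached 5 CPM on both sides was 0.23 for X1 over irradiated and 0.31 for X2 over irradiated. Relative log2 ratios below have this median taken off. Over all transcripts compared the medians were -0.18 and -0.03, of the opposite sign. In X1 the 2 early members were more than 2-fold above irradiated animals and the 4 late members more than 2-fold below them, against 24.1% and 36.8% of 21044 transcripts. The relative log2 ratio was 5.28 for *prog-1* and 5.27 for *prog-1-1*, and -5.39 for *prog-1-2*, -4.66 for *prog-1-8*, -2.96 for *prog-1-4* and -2.57 for *prog-1-7*. *prog-1-7* and *prog-1-8* are also on another list that the authors drew up with these libraries, so their direction is not independent evidence. That list is of irradiation-sensitive transcripts not enriched in X1 or X2, which conflicts with their place among the genes enriched in X2. No member lay between -2.57 and 5.27, but since the early and late labels come from loss after irradiation, this split is no finding about the 2 groups.

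In X2 the 2 early members were more than 2-fold above irradiated animals, against 23% of 20494 transcripts, and 3 late members more than 2-fold below them, against 32.4%. *prog-1-1* was 1128-fold higher (996 to 1261) and *prog-1* 1062-fold higher (938 to 1194), at ranks 4 and 5. Among the late members *prog-1-8* was 10.8-fold lower (9.41 to 12.3), *prog-1-2* 8.25-fold lower (7.68 to 8.87) and *prog-1-4* 2.84-fold lower (2.48 to 3.25). *prog-1-7* lay between, at a log2 ratio of -0.88 (-1.03 to -0.72). Its relative log2 ratio was -1.19, so it passed 2-fold once the median of transcripts at 5 CPM on both sides was taken off. The median over all 20494 transcripts was -0.03, so this pass depends on which transcripts set the median. The relative log2 ratios of *prog-1* and *prog-1-1* were 9.74 and 9.83.

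Whole *control(RNAi)* animals were set against whole irradiated animals to see which transcripts were lower after irradiation. The 2 libraries stand in separate deposited tables, were scaled by the same formula and also differ in feeding, which cannot be told apart from irradiation. The study states that the X1, X2 and irradiated samples were multiplexed together and does not name the RNAi samples there. A difference of sequencing run, if there was one, cannot be told apart either. All 6 members were past 2-fold in favour of *control(RNAi)*, where 3.29% of 19254 transcripts were. Sensitivity to irradiation was part of how these genes were chosen or labelled, so nothing is read from that count. *prog-1-1* was 89.9-fold higher (79.3 to 101) and *prog-1* 74.7-fold higher (65.9 to 84.1), at ranks 5 and 7. The late members differed less: *prog-1-7* by 6.80-fold (6.37 to 7.27), *prog-1-8* by 4.48-fold (4.26 to 4.71), *prog-1-4* by 3.14-fold (2.89 to 3.41) and *prog-1-2* by 2.21-fold (2.15 to 2.27).

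Knockdown of *mex3-1* was the comparison within 1 deposited table. All 6 members were at least 2-fold lower in *mex3-1(RNAi)* than in *control(RNAi)*, where 1.02% of 19639 transcripts were. The early members were 8.13-fold lower (7.66 to 8.63) for *prog-1* and 9.43-fold lower (8.85 to 10.1) for *prog-1-1*. *prog-1-2* was 7.84-fold lower (7.48 to 8.22) and *prog-1-4* 7.80-fold lower (6.94 to 8.75). *prog-1-7*, at 15.1-fold lower (13.7 to 16.6), and *prog-1-8*, at 14.9-fold lower (13.7 to 16.2), had the largest differences, at ranks 26 and 27 from the lowest. The early members lay inside the range of the late ones here, unlike in the comparisons with irradiated animals. Stem cell transcripts did not share this direction: of the 59, 0 fell short of the control by 2-fold or more and 5 exceeded it by as much. Of all transcripts compared, 1.02% and 0.412% did. The median log2 ratio of the 59 was 0.28, beside 0.01 over all transcripts.

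**Figure D3:**
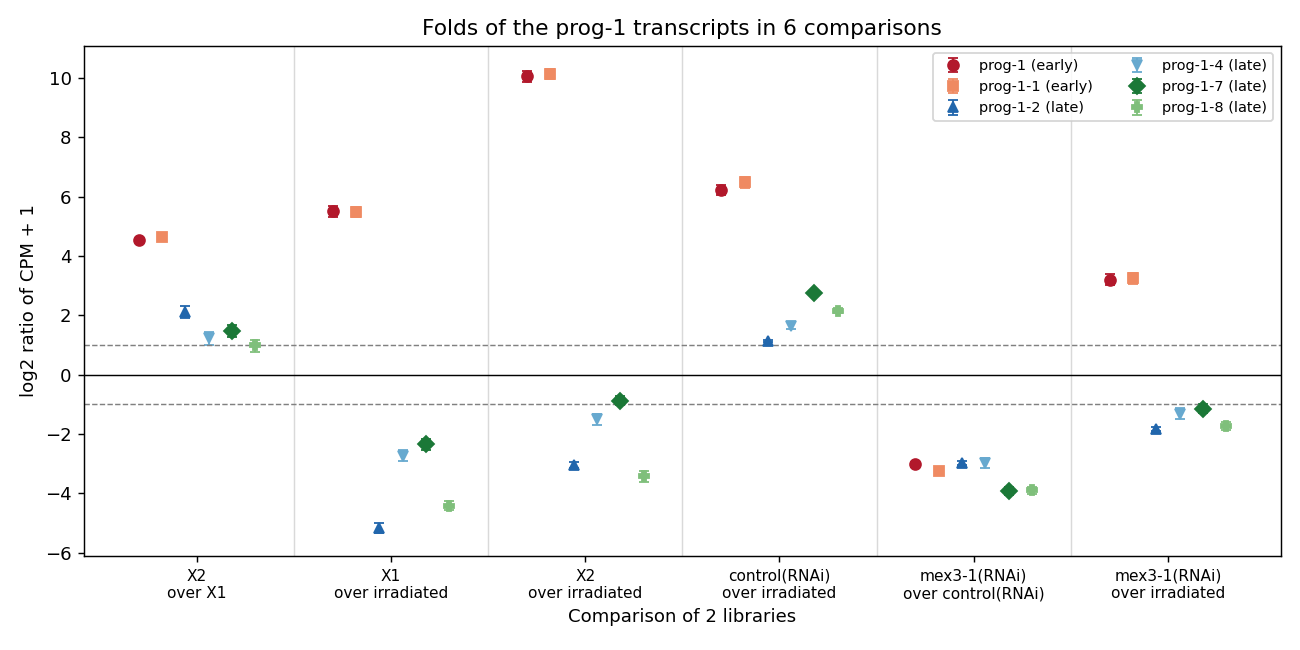
log2 ratio of CPM + 1 of each *prog-1* transcript in 6 comparisons of 2 libraries, with 95% counting intervals as bars and dashed lines at 2-fold; each point rests on 1 library per side. All 6 members are above 0 for X2 over X1 and *control(RNAi)* over irradiated and below it for *mex3-1(RNAi)* over *control(RNAi)*, while early and late members lie on opposite sides in the other comparisons.

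*mex3-1(RNAi)* and irradiated animals were then compared directly, across the separate tables. The irradiated animals were taken 7 days after irradiation and the *mex3-1(RNAi)* animals 12 days after feeding. Time since treatment and feeding cannot be told apart from the treatments here. The 2 early members were at least 2-fold higher in *mex3-1(RNAi)*, where 3.83% of 19249 transcripts were, and the 4 late members at least 2-fold lower, where 0.899% were. *prog-1* was 9.19-fold higher (8.04 to 10.4) and *prog-1-1* 9.53-fold higher (8.32 to 10.8). *prog-1-2* was 3.55-fold lower (3.38 to 3.74), *prog-1-8* 3.32-fold lower (3.02 to 3.65), *prog-1-4* 2.48-fold lower (2.18 to 2.83) and *prog-1-7* 2.22-fold lower (1.98 to 2.48). With a pseudocount of 5 CPM 2 of these late members were past 2-fold. The members that irradiated animals kept least of were not those that *mex3-1(RNAi)* animals kept least of. The early and late labels rest on loss after irradiation and largely fix this split, so it is given as a description only.

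The same values as a percent of the *control(RNAi)* CPM show the size of what was left. In irradiated animals 0.684% of the *prog-1* level (0.535% to 0.862%) and 0.433% of the *prog-1-1* level (0.314% to 0.582%) was left, against 45.1% for *prog-1-2*, 29.6% for *prog-1-4*, 21.7% for *prog-1-8* and 13.8% for *prog-1-7*. In *mex3-1(RNAi)* animals the 6 members ranged less widely, from 5.63% for *prog-1-7* (5.02% to 6.29%) and 5.92% for *prog-1-8* to 9.98% for *prog-1-4*, 9.99% for *prog-1-1*, 11.7% for *prog-1* and 12.4% for *prog-1-2* (11.8% to 13.0%). Both sets of percents share the *control(RNAi)* library, and the 2 treatments differ in the time since treatment. Among the 27 other progenitor transcripts of the study's lists, 12 had a smaller part left in irradiated than in *mex3-1(RNAi)* animals and 15 a larger part.

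**Figure D4:**
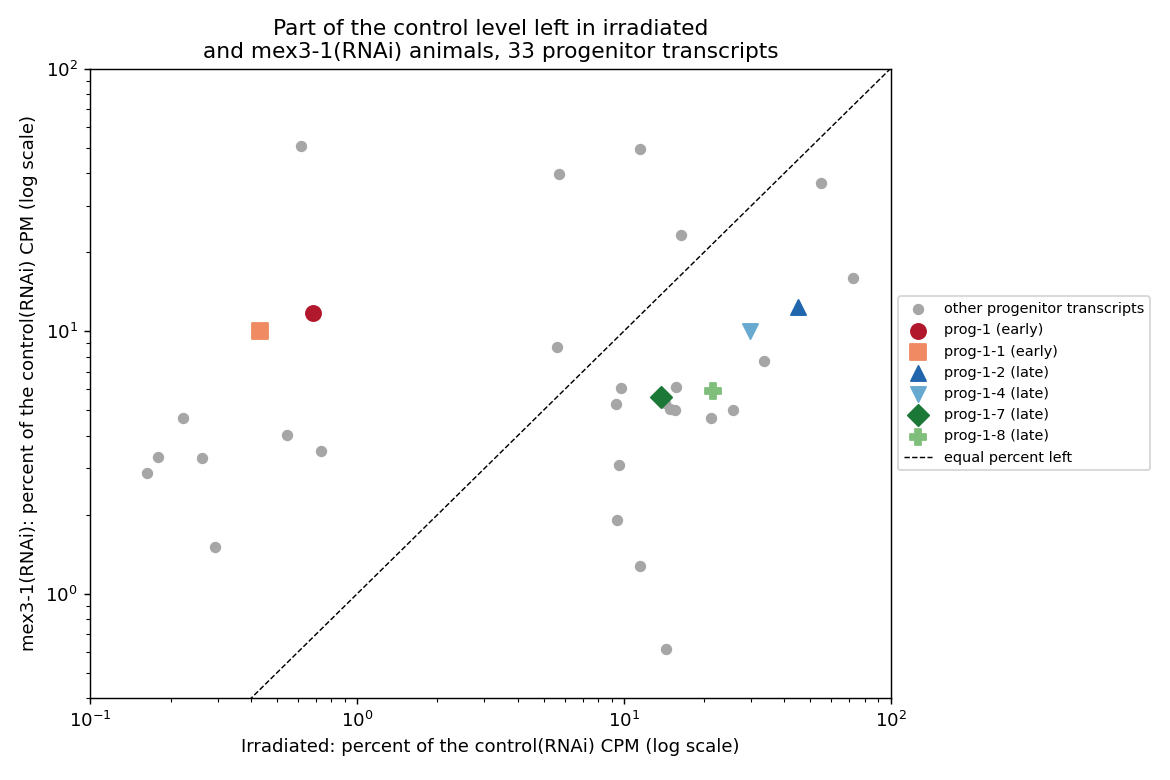
Percent of the *control(RNAi)* CPM left in irradiated animals (horizontal, log axis) and in *mex3-1(RNAi)* animals (vertical, log axis) for 33 progenitor transcripts, with 1 point per transcript and a dashed line of equal percent. The 2 early *prog-1* members lie above the line, below 1% in irradiated animals, and the 4 late members lie below the line, between 13.8% and 45.1%.

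Other transcripts of the study's lists were set beside the members as a description. They come from the same lists of epithelial progenitor genes as the members, so a shared direction is not independent evidence. The 5 other transcripts numbered as *prog-1* relatives (*prog-1-3*, *prog-1-5*, *prog-1-6*, *prog-1-9* and *prog-1-10*) were all at least 2-fold lower in *mex3-1(RNAi)* than in *control(RNAi)*. The 6 transcripts of the *prog-2* family were too, against 1.02% of all transcripts compared. *prog-1-3* had the order of the early members, with 3.01 CPM in X1, 72.9 CPM in X2, 1 read in irradiated animals, 6.45 CPM in *control(RNAi)* and 0.301 CPM in *mex3-1(RNAi)*. The other 4 were more than 2-fold below irradiated animals in X1, as the late members and 36.8% of all transcripts compared were. Of these 5 *prog-1-9* had the largest part of the *control(RNAi)* level left in irradiated animals, at 72.2%.

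The *prog-2* family, the other branch of PROG genes, was like the early members in X2. All 6 of its transcripts were more than 2-fold higher in X2 than in X1 and than in irradiated animals. Of all transcripts compared, 13.8% and 23% were. *prog-2* itself, an early progeny marker, was at 4477 CPM in X2 and 0.788 CPM in irradiated animals. After *mex3-1* knockdown 2.89% of the *control(RNAi)* level of *prog-2* was left (2.70% to 3.09%), against 11.7% for *prog-1* (11.01% to 12.5%). The families did not separate cleanly: *prog-2-2* had 8.74% left (8.06% to 9.46%), an interval that overlaps that of *prog-1-1* (9.33% to 10.7%), the 4 other *prog-2* transcripts had 3.29% to 4.02%, and *prog-1-3* had 4.66% (2.78% to 7.37%).

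*AGAT-1*, a late progeny marker named for its similarity to a glycine amidinotransferase, did not have the order of the late *prog-1* members. It was at 14.8 CPM in X1, 254 CPM in X2, 20.9 CPM in irradiated animals, 224 CPM in *control(RNAi)* and 11.8 CPM in *mex3-1(RNAi)*. Its X2 level was 113% of that of *control(RNAi)* (111% to 116%), while the late members were at 1.23% to 8.31%. *AGAT-2*, its companion on the lists, was at 227 CPM in X2 and 265 CPM in *control(RNAi)*, which is 85.6% (83.7% to 87.5%). In X2 both *AGAT* transcripts were above irradiated animals, and each late *prog-1* member was below them. Of the 11 *pmp* transcripts, named for their *prog*-like staining, 10 were at least 2-fold lower after *mex3-1* knockdown, against 1.02% of all transcripts compared. In X1, 8 of the 11 were more than 2-fold below irradiated animals, against 36.8% of all transcripts compared. The 3 regulator genes *egr-1*, *sox9-1* and *p53*, which encode transcription factors, were all past 2-fold in favour of X2 over X1. Of all transcripts compared 13.8% were. All 3 regulator genes were lower after *mex3-1* knockdown, at 39.8%, 50.8% and 49.5% of the *control(RNAi)* CPM in this order. Only *egr-1* was past 2-fold as the ratio of CPM + 1.

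The likeness of patterns was measured as the root mean square (RMS) difference of log2(CPM + 1), centred over the 5 libraries, so that 0 is the same pattern and 1 a typical 2-fold departure. It was computed over 13948 transcripts with at least 5 CPM in 1 or more libraries. *prog-1* and *prog-1-1* were each other's nearest transcript, at 0.0999, followed for both by *prog-2-4* and *prog-2-1*, at 0.439 to 0.562. The late members were 0.39 to 1.01 from each other and 3.75 to 4.72 from the early members. The irradiated library is 1 of the 5 and the labels rest on loss after irradiation. The gap between early and late is therefore in part fixed by the labels and is given as a description. The pair *prog-1-4* and *prog-1-7* was the closest of the late members, at 0.39, followed by *prog-1-2* and *prog-1-8*, at 0.51. Other transcripts were nearer to most late members: *prog-1-7* was at rank 23 from *prog-1-4*, and *prog-1-4* at rank 15 from *prog-1-7*, among 13947 others. *prog-1-8* was at rank 8 from *prog-1-2*, and *prog-1-2* at rank 2 from *prog-1-8*. The lowest placed was *prog-1-8*, at rank 545 from *prog-1-4*.

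**Figure D5:**
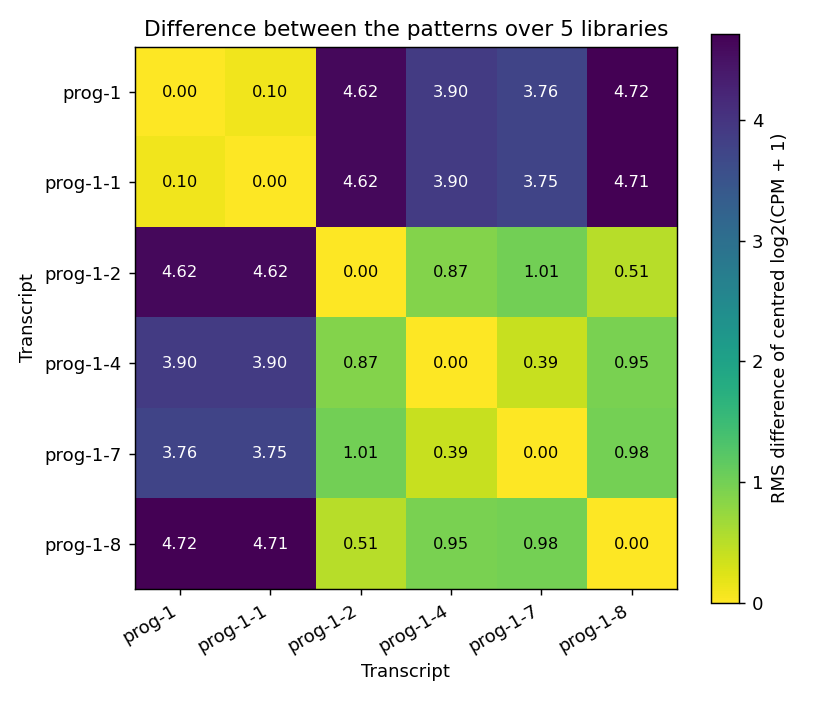
RMS difference of centred log2(CPM + 1) over the 5 libraries for each pair of *prog-1* transcripts, printed in the cell and coloured from 0 upward. The 2 early members differ by 0.10, the 4 late members by 0.39 to 1.01 among themselves, and early from late by 3.75 to 4.72. The labels, which rest on loss after irradiation, in part fix that gap.

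The transcripts nearest to the late members included other listed progenitor transcripts. *pmp-5* was nearest to *prog-1-8*, at 0.17, with 1.55 CPM in X2, 21.6 CPM after irradiation and 144 CPM in *control(RNAi)*, and *prog-1-2* was next, at 0.51. *pmp-10* was the second nearest to *prog-1-7*, at 0.21, with 115 CPM in *control(RNAi)* and 17.9 CPM after irradiation. The nearest to *prog-1-7* and the 3 nearest to *prog-1-2* and *prog-1-4* are transcripts without a name on these lists.

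The counting could divide the reads of near-identical transcripts among them. SmedASXL_003907 and SmedASXL_019268, the nearest to *prog-1-4* at 0.0241 and 0.0583, had nearly its level in every library: 28.3 and 30.6 CPM in *control(RNAi)* beside 30.6 CPM for *prog-1-4*, and 8.65 and 9.24 CPM in irradiated animals beside 9.06 CPM. The transcripts' sequences were not used here, so whether this happened was not tested, and the level of *prog-1-4* is uncertain for that reason. The same holds for *prog-1* and *prog-1-1*. There were 0.795 *prog-1-1* reads per *prog-1* read in X1 (0.765 to 0.827), 0.852 in X2 (0.845 to 0.859), 0.611 in irradiated animals (0.410 to 0.901), 0.965 in *control(RNAi)* (0.939 to 0.992) and 0.823 in *mex3-1(RNAi)* (0.753 to 0.899). The interval of *control(RNAi)* lies above those of the 4 other libraries.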

How the data were processed

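Poly(A)-selected RNA was sequenced as single-end reads of 50 bases. The authors aligned untrimmed reads to the SmedASXL transcriptome with Bowtie2 2.2.4 (per the submitters' processing notes and the study's methods) and deposited, as a signal per transcript, CPM + 1: reads per 1000000 mapped reads with a pseudocount of 1, not divided by length. Deposited lists of X1-enriched and X2-enriched transcripts, with fold changes and adjusted values of the authors' DESeq comparisons, were not used, nor were 10 columns that hold libraries of other series.

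After 1 was taken off, 100% of values corresponded to whole reads, with a tolerance of 0.01 read. X1 held 64821930 reads, X2 held 60528509, the irradiated library 69835694, *control(RNAi)* 68883087 and *mex3-1(RNAi)* 63209234, of which the listed transcripts held 99.9% to 100%. A row that names no transcript held 32, 22, 2, 6 and 4 reads and was left out. A count of 0 allows up to 3 reads.

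Folds are ratios of CPM + 1, after the study's methods, with 95% exact Clopper-Pearson intervals of the reads of both libraries. Intervals of levels are exact Poisson intervals. Background shares are over transcripts that reached 1 CPM in 1 or both libraries. The transcripts named were the 6 members, the 3 nearest to each in pattern, the references *piwi-1*, *prog-2*, *AGAT-1* and *mex3-1*, and examples from the lists. Members and lists were chosen with earlier results of these data known, and the percent of the control level, the ratio between *prog-1-1* and *prog-1* and the ratios between neighbouring libraries were added after the values were seen. Alternatives were pseudocounts of 0.1 and 5 CPM, 2 other scalings, a filter at 5 CPM and other fold thresholds. The calculation was tested on simulated data. The scripts ran under Python 3.11.15 with scipy 1.17.1, pandas 2.3.3, matplotlib 3.10.9 and numpy 2.4.6.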

Additional observations from a re-analysis of the deposited data

How the results depend on the processing

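The 36 log2 ratios of the 6 members in 6 comparisons kept their sign under pseudocounts of 0.1 and 5 CPM, with the median log2 ratio set to 0 and with CPM computed without the 10 most abundant transcripts. The pseudocount moved them most, by up to 1.89 on the log2 scale at 0.1 CPM and 1.90 at 5 CPM, and the 2 scalings by up to 0.31 and 0.33. The move took 22, 35, 15 and 8 of the 36 out of their counting intervals under these settings, in this order. The count of members past 2-fold for X2 over X1 went from 6 to 3 with a pseudocount of 5 CPM and to 3 at a 4-fold threshold. The count at least 2-fold lower in *mex3-1(RNAi)* than in irradiated animals went from 4 to 2 with a pseudocount of 5 CPM and to 0 at 4-fold. The other counts of members stayed within 1.5 times. With a pseudocount of 5 CPM, 2 of the 3 transcripts nearest to *prog-1-2* and to *prog-1-7* and 1 of the 3 nearest to *prog-1-8* were shared with those given, and all 3 for the other members. Over the reads of all 11 *prog-1*-numbered transcripts the early members held 92.9% in X1, 97.3% in X2, 0.781% in irradiated animals, 30.9% in *control(RNAi)* and 35.9% in *mex3-1(RNAi)*. No paired analysis was possible because this series holds 1 library in each group, and columns of other series were not used. Depth limits *prog-1-8* and *prog-1-4* in X1 and *prog-1-1* and *prog-1* in irradiated animals, which rest on 14, 33, 44 and 72 reads.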

Other observations

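Transcripts without a name on the study's lists stood near *prog-1-2* and *prog-1-7* in pattern. SmedASXL_012205, the nearest to *prog-1-2* at an RMS difference of 0.233, was at 1.14 CPM in X1, 5.93 CPM in X2, 56.7 CPM in irradiated animals, 109 CPM in *control(RNAi)* and 19.5 CPM in *mex3-1(RNAi)*. SmedASXL_003593, at 0.246 from *prog-1-2*, was at 3.58 CPM in X1, 23.4 CPM in X2, 159 CPM in irradiated animals, 365 CPM in *control(RNAi)* and 69.4 CPM in *mex3-1(RNAi)*. SmedASXL_002399, the nearest to *prog-1-7* at 0.154, was at 1.59 CPM in X1, 4.91 CPM in X2, 14.0 CPM in irradiated animals, 82.9 CPM in *control(RNAi)* and 4.41 CPM in *mex3-1(RNAi)*. These 3 had the late members' order of *control(RNAi)* above irradiated animals and X1 lowest. The gene lists used here give them no name, and what they encode is not taken up here.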
